A study of Mus musculus with 13 samples.

Results

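The 31 genes described here encode the enzymes of the tricarboxylic acid (TCA) cycle and the proteins that bring pyruvate into it. They were picked by symbol from the 35013 gene symbols of the deposited count table, and all 31 were present. All 31 also passed the filter on low counts that left 16468 genes for testing, and the lowest count of any of them in any library was 229. By role, 12 encode cycle enzymes, 4 encode parts of the pyruvate dehydrogenase complex and 6 encode the kinases and phosphatases of that complex. A further 3 act in pyruvate entry or carboxylation, and 6 encode NADP-linked, cytosolic or malic enzymes that are partners of the cycle.

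Pyruvate made in the cytosol enters mitochondria through a carrier and is converted either to acetyl-CoA by the pyruvate dehydrogenase complex or to oxaloacetate by pyruvate carboxylase. Citrate synthase joins acetyl-CoA to oxaloacetate, and the cycle then oxidizes the carbon step by step and passes electrons to the respiratory chain. The proximal tubule of the kidney is dense in mitochondria and relies on this oxidation to power reabsorption, largely with fatty acids as fuel.

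RNA was measured in kidneys of female mice by tagging new RNA with 4-thiouracil, which the enzyme UPRT turns into a form that cells build into RNA, capturing the tagged RNA and sequencing its poly-A fraction. Every mouse carried Megalin3'Cre-Ert, a tamoxifen-dependent Cre made from the megalin promoter that is meant to act in proximal tubule cells, and 1 Uprt allele that Cre switches on, and the mice were given tamoxifen. The Spns1 KO group (4 libraries) was Spns1 flox/flox, and Spns1 encodes a lysosomal membrane transporter. The WT group (5 libraries) had no iron treatment, and the FeO group (4 libraries) received 12 mg of iron as iron sucrose by injection on each of 3 days and was euthanized 1 week later. The methods give WT and FeO mice as Spns1 flox/+, whereas the sample labels call them Spns1 WT. The age of the mice is not given in the sources used here.

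Total counts ranged from 31809135 to 71296474 in Spns1 KO, from 23068023 to 37362311 in WT and from 25986133 to 29981814 in FeO. Spns1 itself was at 39.0, 44.5, 36.6 and 59.0 CPM (counts scaled to a common library size) in the libraries labelled Spns1 KO 1 to 4, at 57.2, 61.4, 57.6, 39.2 and 62.9 CPM in WT 1 to 5, and at 58.7, 56.7, 39.0 and 45.9 CPM in FeO 1 to 4. These ranges overlapped, and the difference between Spns1 KO and WT, as log2 fold change (log2FC), was -0.31 (standard error, SE, 0.18; adjusted p = 0.225 by the quasi-likelihood test of edgeR, adjusted after Benjamini and Hochberg). The count spans the whole gene while the floxed allele loses only a part of it, and the methods give WT mice as Spns1 flox/+. This is therefore a weak check of the labels. The paper reports loss of Spns1 RNA in the knockout kidneys, and why these counts overlap was not tested. The group names below stand for the libraries so labelled. The summed level of 10 proximal tubule markers was 4259 to 5894 CPM in WT, 11160 to 12120 CPM in Spns1 KO and 2520 to 9723 CPM in FeO. Kap alone carried a part of these sums that differed between libraries. Without it, WT 1 went from 5894 to 4856 CPM and FeO 4 from 9723 to 2995 CPM. The sums without Kap were 3465 to 4856 CPM in WT, 6634 to 7526 CPM in Spns1 KO and 1937 to 4742 CPM in FeO. The summed level of 6 collecting duct markers was 242.1 to 410.2, 249.4 to 411.7 and 445.3 to 1181 CPM in the same order. Markers of other kidney cells were thus present in the captured RNA, and in such bulk RNA fewer cells of a type and less RNA per cell cannot be told apart.

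The bases before the RefSeq start site of 3 members are printed here because these genes carry the patterns that follow: Idh3g and Suclg2 were higher in Spns1 KO than in both other groups, and Pdk4 was lower than WT in both models. Each is written 5′ to 3′ on the gene's own strand, which is the minus strand of GRCm38.p6 for all 3. Capitals mark the letters CCAAT (the CCAAT box), CCGGAAG (an ETS site) or GGGCGG (the GC box), or their reverse complements, which are ATTGG for the first, CTTCCGG for the ETS site and CCGCCC for the GC box. The stretches are chrX:73786898-73787147 for Idh3g, chr6:95718847-95719096 for Suclg2 and chr6:5496310-5496528 for Pdk4, where the last 31 bases before the RefSeq start were left out because GENCODE places them inside the gene.
Idh3g: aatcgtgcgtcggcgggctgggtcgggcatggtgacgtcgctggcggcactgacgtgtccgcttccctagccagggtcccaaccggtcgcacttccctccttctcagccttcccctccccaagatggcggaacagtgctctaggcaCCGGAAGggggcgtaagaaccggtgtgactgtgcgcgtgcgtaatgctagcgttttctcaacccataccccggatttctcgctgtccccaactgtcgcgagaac
Suclg2: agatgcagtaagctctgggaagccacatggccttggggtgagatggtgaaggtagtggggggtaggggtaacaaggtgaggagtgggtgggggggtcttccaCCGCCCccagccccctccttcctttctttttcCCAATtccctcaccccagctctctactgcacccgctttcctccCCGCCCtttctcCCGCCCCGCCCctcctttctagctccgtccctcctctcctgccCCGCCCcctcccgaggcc
Pdk4: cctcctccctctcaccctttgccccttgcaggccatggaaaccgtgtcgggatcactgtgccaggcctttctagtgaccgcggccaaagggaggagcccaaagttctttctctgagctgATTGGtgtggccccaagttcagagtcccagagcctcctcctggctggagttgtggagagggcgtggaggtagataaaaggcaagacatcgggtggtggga
The Idh3g stretch held 1 ETS match, starting 104 bases before the RefSeq start, and no CCAAT or GC box letters. The Suclg2 stretch held 1 CCAAT match, 116 bases before the start, and 5 GC box matches, of which a pair starting 61 and 56 bases before the start share a base. The Pdk4 stretch held 1 CCAAT match, 131 bases before the start. RefSeq promoters of GRCm38.p6 were matched for 28 of the 31 members, with 39 start sites in all. In the 250 bases before the start, both strands searched, CCAAT letters were in 53.8% of these 39 and in 33.8% of all 32851 promoters, GC box letters in 61.5% and 32.7%, and ETS letters in 5.13% and 6.91%. The ERR letters TCAAGGTCA were in 0 of the 39, against 0.387% of all promoters. These are matches of letters, and promoters of 1 gene can overlap.

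In WT libraries the 31 genes differed widely in level. Per kilobase of transcript, Pdk4 stood highest with a mean of 216 CPM per kb (132 to 281 over the 5 libraries), followed by Pdk2 with 191 CPM per kb (143 to 242). Pdk4 and Pdk2 encode pyruvate dehydrogenase kinases, which switch off pyruvate dehydrogenase by phosphorylating it. Mdh1, Ogdh, Mpc1 and Pdha1 came next, at 125, 121, 118 and 109 CPM per kb. The lowest were Pdk3, Me2 and Pdp1, at 5.68, 3.76 and 3.41 CPM per kb. Most neighbours in this order overlapped in their ranges over the libraries, and only the steps after Idh3a, after Pdhx and after Pdk1 separated neighbours without overlap.

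Relative to WT, 13 of the 31 genes were upregulated in Spns1 KO and 2 were downregulated, where a call needed an adjusted p under 0.05 and a log2FC beyond 0.5. Of all genes tested, 14% were called higher and 7.55% lower by the same rule. The median log2FC was 0.35 over the 31 genes and -0.045 over all genes tested. In FeO, 10 of the 31 were upregulated and 1 was downregulated, against 22.4% and 19.7% of all genes tested, with medians of 0.37 and -0.011. The share of the 31 called higher was above that of all genes in both models. The share called lower was below it in FeO, and in Spns1 KO the 2 lower calls were near the share of all genes. The list was chosen with earlier results of these data known, so these shares describe it and do not test it. In FeO the share called higher was 32.3%, against 22.4% of all genes. This order turned with the replicate number as a block and a trend on transcript length and GC removed from every library. There, 12.9% of the 31 and 16% of all genes were called higher. With only the trend removed the shares were 22.6% and 19%, and without WT 5 they were 25.8% and 22.8%. Without FeO 2, 15 of the 31 were called higher in FeO, Idh3g, Suclg2, Sucla2, Mdh1 and Acly being the added ones. The WT libraries served both comparisons, so the calls of the models are not independent.

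**Figure D1:**
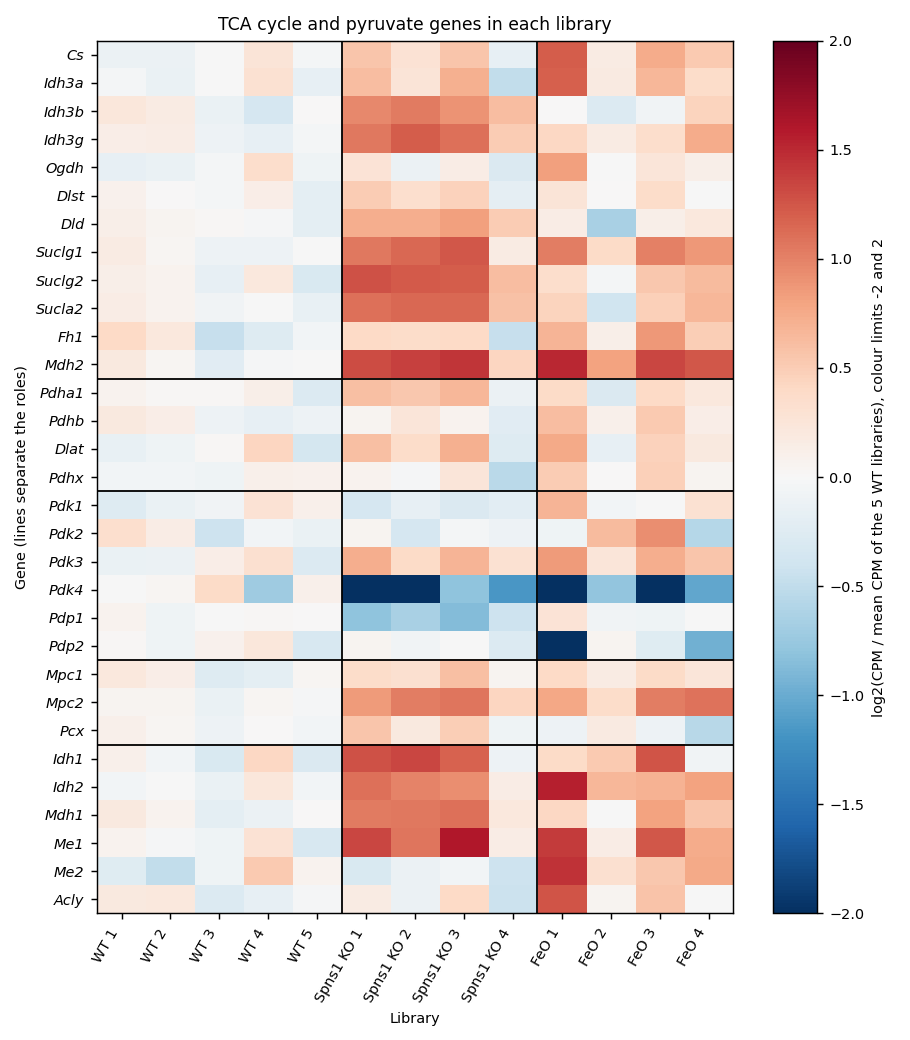
Level of each of the 31 genes (y axis, grouped by role) in each of the 13 libraries (x axis), as log2 of its CPM over the mean CPM of the 5 WT libraries, with colours limited at -2 and 2. Red marks levels above the WT mean and blue levels below it: the cycle genes of Spns1 KO 1 to 3 are mostly red, Spns1 KO 4 and FeO 2 are paler than the rest of their groups, and Pdk4 is blue in both models.

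The calls against WT fell into 5 patterns. In both models, 6 genes were higher than WT: Suclg1, Mdh2, Pdk3, Mpc2, Idh2 and Me1. In Spns1 KO alone, 7 were called higher: Idh3b, Idh3g, Dld, Suclg2, Sucla2, Idh1 and Mdh1. In FeO alone, 4 were called higher: Cs, Idh3a, Fh1 and Me2. Pdk4 was lower in both and Pdp1 in Spns1 KO alone. The other 12 genes were called in neither: Ogdh, Dlst, Pdha1, Pdhb, Dlat, Pdhx, Pdk1, Pdk2, Pdp2, Mpc1, Pcx and Acly. A call in 1 model and not in the other does not show that the models differ, and the direct comparison of Spns1 KO with FeO is given gene by gene below. In that comparison 5 of the 31 were called higher in Spns1 KO and 2 lower, against 6.76% and 8.1% of all genes. When only these groups were fitted, 1 stayed called in each direction, Idh3b higher and Me2 lower.

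**Figure D2:**
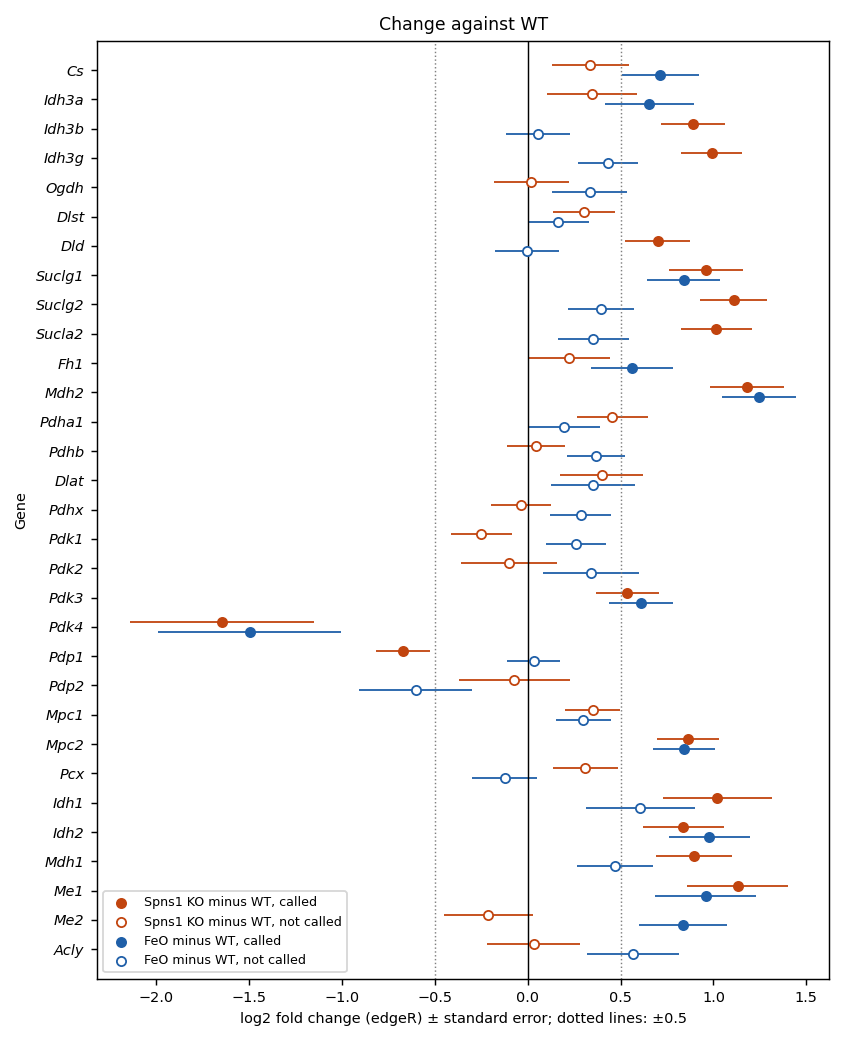
Log2FC against WT (x axis) for each of the 31 genes (y axis), with Spns1 KO in orange and FeO in blue. Bars are SE from edgeR's fit, filled points were called, and dotted lines stand at -0.5 and 0.5; Idh3b, Dld and Pdp1 are filled for Spns1 KO and near 0 for FeO.

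Among the 12 cycle genes, 7 were called higher in Spns1 KO and 5 in FeO, against 14% and 22.4% of all genes tested. None was called lower, against 7.55% of all genes in Spns1 KO and 19.7% in FeO. Calls were not the same for the subunit genes of isocitrate dehydrogenase 3, the NAD-linked enzyme that turns isocitrate into 2-oxoglutarate. This enzyme is built of a catalytic alpha subunit and the beta and gamma subunits, and no test compared the subunits with each other. In GRCm38, Idh3b lies on chromosome 2 from 130279309 to 130284547, Idh3g on chromosome X from 73778963 to 73786897 and Idh3a on chromosome 9 from 54586334 to 54604661. Idh3b, the beta subunit, was at 125, 120.2, 97.8, 84.6 and 107 CPM in WT 1 to 5. It was at 209, 221, 199.8 and 163 CPM in Spns1 KO 1 to 4 and at 107, 88.8, 102 and 146 CPM in FeO 1 to 4. Every Spns1 KO library thus lay above every WT and FeO library, while FeO and WT overlapped. The log2FC was 0.89 in Spns1 KO (SE 0.17, adjusted p = 0.00244, edgeR) and 0.05 in FeO (SE 0.17, adjusted p = 0.815, edgeR). Spns1 KO exceeded FeO by 0.84 on the log2 scale (SE 0.18, adjusted p = 0.00981, edgeR).

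Idh3g, the gamma subunit, was at 72.6, 73.3, 61.6, 59.3 and 64.5 CPM in WT. It was at 137, 154, 142 and 94.1 CPM in Spns1 KO and at 88.1, 73.9, 84.7 and 111 CPM in FeO. Spns1 KO and FeO both lay above WT without overlap, FeO 2 by under 1 CPM, and they overlapped each other through Spns1 KO 4. Against WT, the log2FC was 0.99 in Spns1 KO (SE 0.16, adjusted p = 0.000945, edgeR). In FeO it was 0.43 (SE 0.16, adjusted p = 0.0417, edgeR), short of the fold limit. Spns1 KO exceeded FeO by 0.56 (SE 0.17, adjusted p = 0.0415, edgeR), a call that was lost without any 1 of replicates 1, 2 or 3 of either Spns1 KO, WT or FeO, with a lowest value of 0.48.

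Idh3a encodes the catalytic subunit, and its difference of -0.31 between Spns1 KO and FeO was not called (SE 0.25, adjusted p = 0.421, edgeR). It ranged from 97.9 to 136 CPM in WT, from 78.2 to 179 CPM in Spns1 KO and from 124 to 252 CPM in FeO. Its log2FC was 0.35 in Spns1 KO (SE 0.24, adjusted p = 0.306, edgeR) and 0.65 in FeO (SE 0.24, adjusted p = 0.0371, edgeR), and the FeO call was lost without FeO 1, FeO 3, WT 1, WT 2, WT 3 or WT 5, with library totals alone, and with the length and GC trend removed (0.57). Per length, Idh3a made up 23.1 to 35.1% of the summed level of the 3 subunit genes in WT (median 24.9%), 15.0 to 23.2% in Spns1 KO (median 19.4%) and 23.9 to 42.5% in FeO (median 32.5%). The Spns1 KO and FeO ranges of this share did not overlap, and the Spns1 KO and WT ranges met at their edge.

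**Figure D3:**
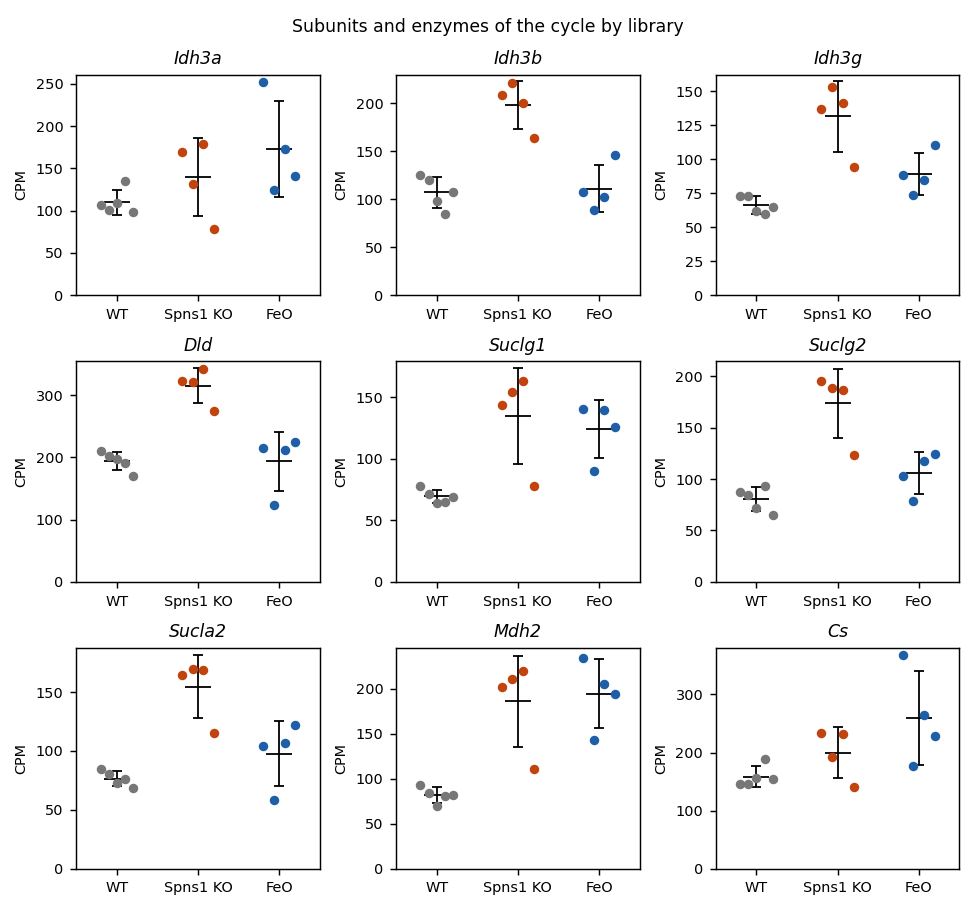
CPM (y axis, from 0) of 9 cycle genes in each library, by group (x axis), with the group mean as a horizontal line and 1 SD as bars (WT n = 5, Spns1 KO and FeO n = 4 each). Idh3b and Dld separate Spns1 KO from both other groups, Mdh2 separates both models from WT, and Cs and Idh3a are highest in FeO 1.

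Dld encodes dihydrolipoamide dehydrogenase, a subunit shared by the pyruvate, 2-oxoglutarate and branched-chain keto acid dehydrogenase complexes. It was at 209.6, 202, 197, 191 and 170.3 CPM in WT, at 323, 320.3, 342 and 275 CPM in Spns1 KO and at 215, 123, 211 and 225 CPM in FeO. Spns1 KO again stood above both other groups in every library. Its log2FC was 0.70 in Spns1 KO (SE 0.17, adjusted p = 0.0102, edgeR) and -0.0030 in FeO (SE 0.17, adjusted p = 0.99, edgeR). Spns1 KO exceeded FeO by 0.70 (SE 0.18, adjusted p = 0.021, edgeR), a call lost without Spns1 KO 1 or Spns1 KO 2. The partners of Dld in the 2-oxoglutarate complex, Ogdh and Dlst, were not called in any comparison, with log2FC values of 0.02 and 0.30 for Spns1 KO, and of 0.33 and 0.16 for FeO. Ogdh ran from 445 to 641 CPM in WT, from 408 to 606 CPM in Spns1 KO and from 499 to 889 CPM in FeO. The 3 ranges of Ogdh therefore overlapped throughout.

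All 3 subunits of succinyl-CoA synthetase, which makes ATP or GTP as it frees succinate, rose in Spns1 KO. Suclg1, the alpha subunit shared by both forms, was at 77.6, 71.1, 64.3, 64.7 and 68.8 CPM in WT, at 144, 154, 163 and 77.9 CPM in Spns1 KO and at 140.2, 90.3, 139.8 and 126 CPM in FeO. Both models lay above WT, but Spns1 KO 4 exceeded the highest WT library by less than 1 CPM. Its log2FC was 0.96 in Spns1 KO (SE 0.20, adjusted p = 0.0038, edgeR) and 0.84 in FeO (SE 0.20, adjusted p = 0.00379, edgeR). After removal of that trend, the FeO value was 0.41 and no longer passed.

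Suclg2, the beta subunit of the GTP form, was at 87.1, 85.0, 71.6, 93.5 and 65.4 CPM in WT, at 196, 189, 187 and 123 CPM in Spns1 KO and at 103, 78.7, 117 and 125 CPM in FeO. Sucla2, the beta subunit of the ATP form, was at 84.5, 80.4, 72.5, 76.2 and 68.6 CPM in WT, at 164, 169.8, 169 and 115 CPM in Spns1 KO and at 104, 58.2, 106 and 122 CPM in FeO. In both genes Spns1 KO stood clear of WT and overlapped FeO only through Spns1 KO 4, whereas FeO 2 lay inside the WT range of Suclg2 and below that of Sucla2. In Spns1 KO the log2FC was 1.11 for Suclg2 and 1.02 for Sucla2 (SE 0.18 and 0.19, adjusted p = 0.000868 and 0.00213, edgeR). In FeO it was 0.39 and 0.35 (adjusted p = 0.0833 and 0.141, edgeR). Spns1 KO exceeded FeO by 0.71 and 0.66 (adjusted p = 0.0228 and 0.04, edgeR). The Sucla2 difference was lost without the same single libraries as that of Idh3g, with values from 0.48 to 0.78 over all 13 fits, and the Suclg2 difference without Spns1 KO 1, Spns1 KO 2 or FeO 1. Per length, Suclg2 made up 38.7 to 44.9% of the summed beta subunits in WT, 41.5 to 44.1% in Spns1 KO and 39.5 to 47.2% in FeO, so the 2 forms kept overlapping shares. Counts of Suclg2 are uncertain, since 20.7% of its 31-base sequences are shared with other genes, Gm15163 foremost.

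Mdh2, the mitochondrial malate dehydrogenase that closes the cycle by making oxaloacetate, had the largest increase of the 31 genes in both models. After removal of that trend on length and GC, the place went to Me1 in both (1.24 in Spns1 KO and 0.99 in FeO). Mdh2 lies on chromosome 5 from 135778480 to 135790398. Its level was 93.5, 84.1, 69.9, 80.3 and 81.7 CPM in WT, 202, 211, 219.8 and 111 CPM in Spns1 KO and 234, 142, 206 and 194 CPM in FeO. Every library of both models lay above every WT library. The change measured was a log2FC of 1.18 in Spns1 KO (SE 0.20, adjusted p = 0.0011, edgeR) and 1.24 in FeO (SE 0.20, adjusted p = 0.000543, edgeR). Both calls of Mdh2 held under all alternatives tried, although removal of that trend brought them to 0.77 and 0.76. Spns1 KO and FeO differed by -0.06 (SE 0.21, adjusted p = 0.859, edgeR).

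Cs, citrate synthase, ran from 145 to 189 CPM in WT, from 141 to 233 CPM in Spns1 KO and from 177 to 368 CPM in FeO, with log2FC values of 0.34 (adjusted p = 0.251, edgeR) and 0.71 (adjusted p = 0.0122, edgeR). Fh1, fumarase, had log2FC values of 0.22 (adjusted p = 0.484, edgeR) and 0.56 (adjusted p = 0.0493, edgeR). The FeO call of Fh1 lay at the edge of the limit and was lost without any 1 of 10 libraries (Spns1 KO 1 to 3, WT 2 to 5, FeO 1, FeO 3 and FeO 4), with values down to 0.45. It was also lost with library totals alone and with the length and GC trend removed (0.48). Neither gene was called between Spns1 KO and FeO, where the log2FC values were -0.38 for Cs and -0.34 for Fh1. Some sequences of Cs (6.0% of its 31-base sequences) recur elsewhere, mainly in Csl.

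In pyruvate dehydrogenase, which makes acetyl-CoA from pyruvate, none of the 4 genes grouped under it here was called in any comparison. Dld, the subunit it shares with other complexes, was grouped with the cycle and was called higher in Spns1 KO, as given above. Of the 4 genes, Pdha1 encodes the catalytic alpha subunit, Pdhb the beta subunit, Dlat the acetyl-transferring core and Pdhx a binding protein of that core. Their log2FC values in Spns1 KO were 0.46, 0.04, 0.40 and -0.04, with adjusted p from 0.0966 to 0.887 (edgeR). In FeO they were 0.20, 0.37, 0.35 and 0.28, with adjusted p from 0.0675 to 0.416 (edgeR). Pdha1 was called higher in Spns1 KO with the length and GC trend removed (0.53) and without Spns1 KO 4 (0.61), and Dlat without Spns1 KO 4 (0.57). The level of Pdha1 was 474, 453 and 496 CPM in Spns1 KO 1 to 3 but 286 CPM in Spns1 KO 4, against 258 to 338 CPM in WT. Pdha1 and Pdhb share 15.8% and 17.9% of their 31-base sequences with other genes, Map3k15 and Gm6123 foremost, and Map3k15 overlaps Pdha1 on the opposite strand. Whether reads were counted by strand is not given in the sources used here, so reads of the shared stretches cannot be told apart. Idh3b with Nop56, Fh1 with Kmo and Mdh1 with Wdpcp also overlap on opposite strands. In these, only 0.4% of the 31-base sequences of Idh3b, 0.8% of Fh1 and 1.0% of Mdh1 are shared with any other gene.

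The 6 regulators of pyruvate dehydrogenase held both genes called lower than WT, Pdk4 and Pdp1. Pdk4, the kinase known to be induced by fasting and by fatty acids (chromosome 6 from 5483351 to 5496309), was at 751, 772, 980.4, 461 and 805 CPM in WT. It was at 86.7, 108, 432 and 336 CPM in Spns1 KO and at 96.4, 434, 171 and 367 CPM in FeO. No library of either model reached the lowest WT library, with WT 4 only a little above Spns1 KO 3 and FeO 2, and within each model the libraries differed several-fold. The fit gave a log2FC of -1.65 in Spns1 KO (SE 0.49, adjusted p = 0.0261, edgeR) and -1.50 in FeO (SE 0.49, adjusted p = 0.0221, edgeR). The Spns1 KO call was lost without Spns1 KO 1, Spns1 KO 2 or WT 3, and with the length and GC trend removed (-1.53), and the FeO call without FeO 1 or FeO 3, with log2FC values from -2.09 to -1.37 and from -1.83 to -1.20 over the fits leaving out 1 library. The models differed from each other by -0.15 (SE 0.50, adjusted p = 0.86, edgeR).

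Pdk2, a broadly expressed kinase, was at 543, 476, 321, 410.1 and 391 CPM in WT, at 443, 339, 416 and 399 CPM in Spns1 KO and at 405, 660.5, 813 and 287 CPM in FeO. The groups overlapped, and the log2FC values of -0.10 and 0.34 were not past the limits (adjusted p = 0.801 and 0.291, edgeR). Pdk1, which hypoxia is known to induce, was at 50.4, 55.0, 57.4, 73.3 and 64.4 CPM in WT, at 47.6, 53.8, 48.9 and 51.8 CPM in Spns1 KO and at 96.0, 57.7, 59.99 and 74.1 CPM in FeO. Every Spns1 KO library lay below every FeO library, but the difference of -0.51 was not called (SE 0.17, adjusted p = 0.0557, edgeR). Pdk3, the least abundant kinase, was at 10.9, 11.03, 13.2, 14.9 and 9.96 CPM in WT, at 19.9, 15.7, 19.3 and 14.8 CPM in Spns1 KO and at 21.6, 14.1, 19.9 and 17.6 CPM in FeO. It rose in both models, by 0.54 on the log2 scale in Spns1 KO (SE 0.17, adjusted p = 0.0345, edgeR) and by 0.61 in FeO (SE 0.17, adjusted p = 0.0106, edgeR), although Spns1 KO 4 and FeO 2 lay inside the WT range. The Spns1 KO call of Pdk3 was lost without Spns1 KO 1, Spns1 KO 2, Spns1 KO 3, WT 1, WT 2 or WT 5 and with library totals alone, and both of its calls after the length and GC trend was removed. With that trend removed, Pdk1 was called higher in FeO (0.60).

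The 4 kinases were also compared as shares of their sum. Per length, Pdk4 made up 39.4 to 63.7% of their summed level in WT (median 49.3%), 10.3 to 37.8% in Spns1 KO (median 24.4%) and 11.3 to 41.1% in FeO (median 20.1%). Pdk2 made up 32.3 to 54.3% in WT, 56.5 to 81.9% in Spns1 KO and 50.03 to 83.8% in FeO. Spns1 KO and WT did not overlap in either share, while FeO overlapped WT in both through FeO 4. The summed level of the 4 kinases was 336 to 472 CPM per kb in WT, 199.9 to 328 CPM per kb in Spns1 KO and 237 to 436 CPM per kb in FeO. These shares are descriptions of RNA levels over 4 or 5 libraries a group, with no test of their own.

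**Figure D4:**
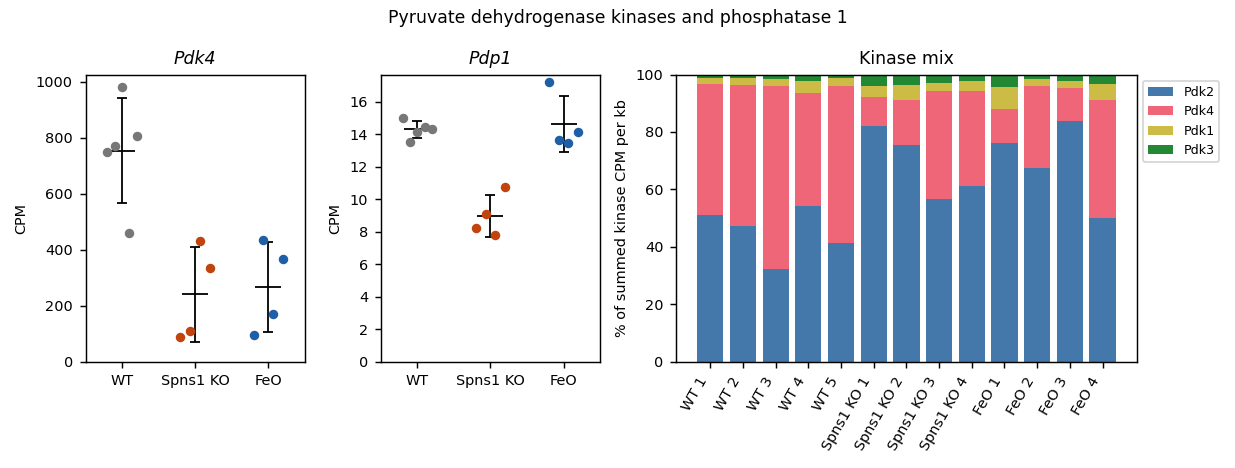
CPM of Pdk4 and Pdp1 in each library by group, with the mean as a horizontal line and 1 SD as bars (WT n = 5, Spns1 KO and FeO n = 4 each), and the share of each kinase in the summed CPM per kb of the 4 kinases in each library. Pdk4 lies below WT in both models, Pdp1 lies below WT in Spns1 KO only, and Pdk2 holds over 50% of the kinase sum in every Spns1 KO and FeO library.

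The phosphatases that reverse the kinases are encoded by Pdp1 (chromosome 4 from 11958184 to 11966452) and Pdp2. Pdp1 was at 15.0, 13.5, 14.2, 14.5 and 14.3 CPM in WT, at 8.23, 9.12, 7.82 and 10.7 CPM in Spns1 KO and at 17.2, 13.7, 13.5 and 14.2 CPM in FeO. Spns1 KO lay below WT and FeO in every library, and FeO lay around WT. The log2FC came to -0.67 in Spns1 KO (SE 0.15, adjusted p = 0.00491, edgeR) and 0.03 in FeO (SE 0.14, adjusted p = 0.864, edgeR), and Spns1 KO differed from FeO by -0.71 (SE 0.15, adjusted p = 0.00925, edgeR). The call against WT held without each library in turn and was lost after removal of the length and GC trend. The values there were -0.42 in Spns1 KO and 0.37 in FeO, neither called (adjusted p = 0.059 and 0.053, edgeR). Pdp2 was not called, with log2FC values of -0.07 in Spns1 KO and -0.60 in FeO (adjusted p = 0.878 and 0.113, edgeR). In FeO it ran from 21.3 CPM in FeO 1 to 97.8 CPM in FeO 2, wider than the WT range of 75.5 to 109 CPM.

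For pyruvate entry, Mpc1 and Mpc2 encode the partners of the mitochondrial pyruvate carrier. Mpc2 was at 51.6, 51.6, 45.2, 50.9 and 49.0 CPM in WT, at 89.7, 101, 104 and 66.6 CPM in Spns1 KO and at 85.3, 64.0, 101 and 106 CPM in FeO. Both models lay above WT in every library. The log2FC was 0.86 in Spns1 KO (SE 0.17, adjusted p = 0.00241, edgeR) and 0.84 in FeO (SE 0.17, adjusted p = 0.00129, edgeR). Both calls were lost after removal of the length and GC trend, with values of 0.37 and 0.24. Mpc1 was not called, with log2FC values of 0.35 and 0.30 (adjusted p = 0.0999 and 0.111, edgeR), and 30.8% of its 31-base sequences recur elsewhere, mostly in the overlapping 4930506C21Rik on the opposite strand. Pcx, pyruvate carboxylase, was not called either, with log2FC values of 0.31 in Spns1 KO and -0.12 in FeO (adjusted p = 0.206 and 0.581, edgeR).

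Of the 6 genes of NADP-linked, cytosolic and malic enzymes, 4 were called higher in Spns1 KO and 3 in FeO. For all genes tested these shares were 14% and 22.4%. Idh2, the NADP-linked isocitrate dehydrogenase of mitochondria, was at 136, 141, 129, 166 and 135 CPM in WT, at 303, 281, 269.9 and 157 CPM in Spns1 KO and at 415, 223, 228 and 247 CPM in FeO. All FeO libraries lay above WT, as did Spns1 KO 1 to 3. Against WT, the log2FC was 0.84 in Spns1 KO (SE 0.22, adjusted p = 0.0133, edgeR) and 0.98 in FeO (SE 0.22, adjusted p = 0.00268, edgeR). The Spns1 KO call was lost without Spns1 KO 1, where the value was 0.74, and with the length and GC trend removed, where it was 0.51.

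Mdh1, the cytosolic malate dehydrogenase of the malate-aspartate shuttle, was at 303, 279.6, 231, 244 and 267 CPM in WT, at 545, 548, 571 and 307 CPM in Spns1 KO and at 355, 264, 462 and 388 CPM in FeO. It rose by 0.89 in Spns1 KO (SE 0.20, adjusted p = 0.00675, edgeR), although Spns1 KO 4 lay only just above WT 1, and its value in FeO was 0.47 (SE 0.20, adjusted p = 0.0717, edgeR). Me1, the cytosolic malic enzyme that makes NADPH and pyruvate from malate, was at 75.4, 70.0, 67.5, 87.0 and 57.4 CPM in WT, at 180.3, 150.3, 216 and 79.4 CPM in Spns1 KO and at 188, 78.9, 169 and 119.9 CPM in FeO. It rose by 1.13 in Spns1 KO (SE 0.27, adjusted p = 0.00882, edgeR) and by 0.96 in FeO (SE 0.27, adjusted p = 0.0107, edgeR), while Spns1 KO 4 and FeO 2 stayed inside the WT range. Its counts are uncertain, since 36.9% of its 31-base sequences are shared, with Gm7049 foremost.

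Idh1, the cytosolic and peroxisomal NADP-linked isocitrate dehydrogenase, rose by 1.02 in Spns1 KO (SE 0.29, adjusted p = 0.0216, edgeR) and stood at 0.61 in FeO (SE 0.29, adjusted p = 0.103, edgeR). Its level was 485, 508 and 455 CPM in Spns1 KO 1 to 3 and 189 CPM in Spns1 KO 4, against 164 to 269 CPM in WT, and its call was lost without Spns1 KO 1, Spns1 KO 2, Spns1 KO 3 or WT 3. Me2, the mitochondrial malic enzyme, went the other way. Its level was 8.39, 7.06, 9.36, 14.3 and 10.5 CPM in WT, 8.06, 9.14, 9.55 and 7.45 CPM in Spns1 KO and 27.1, 12.4, 14.5 and 16.8 CPM in FeO. Every FeO library lay above every Spns1 KO library. Its log2FC was -0.21 in Spns1 KO (SE 0.24, adjusted p = 0.539, edgeR) and 0.84 in FeO (SE 0.24, adjusted p = 0.0106, edgeR), and Spns1 KO differed from FeO by -1.05 (SE 0.25, adjusted p = 0.0143, edgeR), a call that was lost without FeO 1, the highest library. Acly, which splits exported citrate into acetyl-CoA for lipid synthesis, had values of 0.03 in Spns1 KO and 0.57 in FeO and was not called (adjusted p = 0.936 and 0.075, edgeR), but it was called in FeO with the length and GC trend removed (0.71) and without FeO 2 or FeO 4.

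Some measures moved with these results. Spns1 KO 4 was the lowest of its group in 27 of the 31 genes, and FeO 2 the lowest of its group in 23 of 31. Of the genes called higher in their group, Spns1 KO 4 lay inside the WT range in 4 of 13 and FeO 2 in 6 of 10, while the other libraries of both models lay above it in all. In total, 9 of the 31 genes had all Spns1 KO libraries above all WT libraries and 2 had them below, against 13.1% and 9.38% of all genes. For FeO the counts were 5 and 1, against 16.9% and 16.4%, and for Spns1 KO against FeO they were 2 and 3, against 8.25% and 9.1%. Of the 10 proximal tubule markers, 7 were called higher in Spns1 KO, and in FeO 3 were called higher and 1 lower. FeO 1 had the lowest proximal tubule sum (2520 CPM) and the highest collecting duct sum (1181 CPM), and it was the highest of its group in 16 of the 31 genes. Of the 6 collecting duct markers, all 6 were called higher in FeO and 3 in Spns1 KO. The summed level of 6 immune cell markers was 75.3 to 94.2 CPM in WT, 181 to 227 CPM in Spns1 KO and 106 to 255 CPM in FeO, above WT in every library of both models, with 1 marker called higher in Spns1 KO and 4 in FeO. Sums of 5 fibroblast markers (129.6 to 168.9 CPM against 68.8 to 113.5 CPM) and of 5 endothelium markers (211.7 to 214.4 CPM against 152.8 to 176.1 CPM) also lay above WT in every Spns1 KO library, with 3 and 2 markers called higher. Of 4 podocyte markers, 3 were called higher in FeO and 2 in Spns1 KO. Of all genes tested, 14% were called higher in Spns1 KO, and 22.4% were called higher and 19.7% lower in FeO. The part of the cell markers in the results was not tested. Transcript length moved with the calls as well, with a median of 2115 bases for the genes called higher in Spns1 KO, 2347.5 for those called higher in FeO and 3759.5 for the 14 called higher in neither.

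Of 39 other genes of the same pathways, among them aconitases, succinate dehydrogenase and its assembly factors, lactate dehydrogenases, carriers and transaminases, 11 were higher and 2 lower in Spns1 KO, and 15 were higher and 4 lower in FeO. Their median log2FC values were 0.35 and 0.46. Sdha, the catalytic subunit of succinate dehydrogenase, averaged 253 ± 14.5 CPM in WT (SD, n = 5), 582 ± 90.3 CPM in Spns1 KO (SD, n = 4) and 309.7 ± 78.2 CPM in FeO (SD, n = 4). Its log2FC was 1.20 in Spns1 KO and 0.29 in FeO, and Spns1 KO exceeded FeO by 0.91 (adjusted p = 0.000689, 0.21 and 0.00949, edgeR). Ldhd, which oxidizes D-lactate to pyruvate, showed the same order, with log2FC values of 1.48 in Spns1 KO and 0.20 in FeO and a difference of 1.28 between them (adjusted p = 0.000558, 0.471 and 0.00476, edgeR), but 41.2% of its 31-base sequences recur elsewhere.

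Of the 4 assembly factors of succinate dehydrogenase, 3 were called higher in FeO, against 22.4% of all genes tested. Sdhaf1, Sdhaf2 and Sdhaf4 rose in FeO by 1.45, 0.84 and 1.18 on the log2 scale (adjusted p = 0.000742, 0.00125 and 0.000737, edgeR), with values of 0.40, 0.22 and 0.56 in Spns1 KO that were not called. Sdhaf1 and Sdhaf2 were lower in Spns1 KO than in FeO, by -1.05 and -0.63 (adjusted p = 0.0197 and 0.0278, edgeR), whereas Sdhaf4 was not called there at -0.62. Sdhaf3 was not called in any comparison, with values of 0.15 in Spns1 KO, 0.29 in FeO and -0.14 between them. Counts of Sdhaf1 are uncertain, because 69.9% of its 31-base sequences are found elsewhere. Got1, the cytosolic aspartate aminotransferase of the malate-aspartate shuttle, was called in opposite directions. It averaged 324 ± 70.2 CPM in WT (SD, n = 5), 169.9 ± 17.7 CPM in Spns1 KO (SD, n = 4) and 536 ± 225 CPM in FeO (SD, n = 4), with log2FC values of -0.93 and 0.73 and a difference of -1.66 between the models (adjusted p = 0.013, 0.0205 and 0.00245, edgeR).

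The genes that rose in both models included Mrps36, a small adaptor of the 2-oxoglutarate dehydrogenase complex, with log2FC values of 1.28 in Spns1 KO and 1.54 in FeO. They also included the citrate carrier Slc25a1 (0.87 and 1.23), the 2-oxoglutarate carrier Slc25a11 (0.86 and 1.47), the succinate dehydrogenase anchor Sdhc (1.18 and 1.05) and the lactate dehydrogenase Ldhb (1.01 and 0.89). Ldha, the other main lactate dehydrogenase, rose by 1.16 in FeO and stood at 0.64 in Spns1 KO, where it was not called (adjusted p = 0.00253 and 0.0813, edgeR). Over the 6 genes just named, the adjusted p of the called values lay between 0.000393 and 0.0128 (edgeR). None of these 6 was called between Spns1 KO and FeO. Mrps36, Ldhb and Ldha share 21%, 33% and 19.6% of their 31-base sequences with other genes.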

How the data were processed

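Kidney RNA tagged with 4-thiouracil was measured in 13 libraries (4 Spns1 KO, 5 WT and 4 FeO), grouped by the sample labels. The authors deposited 1 table of estimated counts per gene symbol without normalization, all whole numbers. The table is named for kallisto, and the submitters' processing notes name bcl2fastq 2.19, kallisto 0.44.0, DESeq2 and GRCm38, whereas the methods describe alignment to mm10 with STAR and counting with HTSeq, so the counter is uncertain. Poly-A selection leaves out RNA without a tail, and counts of genes that share sequence depend on how the counter splits reads. The members and gene lists were chosen with earlier results of these data known.

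Genes were filtered with filterByExpr (16468 kept), scaled with TMM factors and fitted with edgeR 4.0.16 (R 4.3.3) by group over all 13 libraries. P-values are from its quasi-likelihood test, adjusted by Benjamini-Hochberg over all genes tested, and measure the spread between libraries, which may be partly technical, since no source used here ties each library to its own animal. A gene was called at an adjusted p under 0.05 and a log2 fold change beyond 0.5. DESeq2 1.42.0, other scaling factors, no filter, only the groups compared, a replicate block, removal of a length and GC trend (spline with 5 degrees of freedom) and leaving out each library were the alternatives. The scripts were tested on simulated data. Values per library were given for the 12 called members with the smallest adjusted p and the 4 kinases, and other genes of the pathway were limited to 12 by the same order. Me2 and the other members outside that rule (Cs, Idh3a, Fh1, Idh1, Ogdh, Pdha1 and Pdp2) were given as values because the text turns on them. CPM per kb used each gene's longest protein-coding GENCODE transcript. Shared sequences were counted as 31-base stretches found in transcripts of other genes.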

Additional observations from a re-analysis of the deposited data

Results flagged for a closer look

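Among 93 groups of 4 or 5 libraries (31 genes in 3 groups), 12 held a library that lay far from the others by Dixon's test at the 95% level. Chance does this in about 1 group in 20. The genes share the same libraries, so the groups are not independent and that rate cannot judge the count of 12. Of the 12, 6 were Spns1 KO 4, each below the rest of its group: Suclg2 at 123 CPM, Sucla2 at 115 CPM, Fh1 at 83.3 CPM, Mdh2 at 111 CPM, Idh1 at 189 CPM and Mdh1 at 307 CPM. WT 4 stood above the rest of WT in 3, at 189 CPM for Cs, 136 CPM for Idh3a and 641 CPM for Ogdh. WT 5 stood below the rest of WT for Pdha1, at 258 CPM. FeO 2 stood below the rest of FeO for Dld, at 123 CPM, and FeO 1 above it for Idh2, at 415 CPM.

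By the direct test of Spns1 KO against FeO (edgeR's quasi-likelihood test, adjusted over all genes), 7 genes were called. Of these, 5 were higher and 2 lower in Spns1 KO, against 6.76% and 8.1% of all genes. When only these groups were fitted, Idh3b and Me2 alone stayed called. The calls of Idh3g and Sucla2 were each lost in 9 of the fits without 1 library. The log2 fold change of Spns1 KO against FeO was 0.84 for Idh3b, 0.56 for Idh3g, 0.70 for Dld, 0.71 for Suclg2, 0.66 for Sucla2, -0.71 for Pdp1 and -1.05 for Me2.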

How the results depend on the processing

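No called log2 fold change of a member changed sign under the 9 other settings or the 13 fits that left out 1 library. Of the 33 called values of members, 12 stayed past the limits in all of these and 21 in every fit without 1 library. For the other genes of the pathway, such as Sdha, Got1 and Mrps36, the calls were not tested under these alternatives. Library totals alone moved the median log2 fold change of all genes in Spns1 KO against WT to -0.18.

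Genes called higher in Spns1 KO than in WT numbered 8 with the replicate block and the length and GC trend removed, and those called lower 0 with the trend removed, with or without the block, and 1 to 2 without 1 library. In FeO, the block with the trend removed gave 4 higher (12.9%, against 16% of all genes) and 0 lower, and 0 to 2 were lower without 1 library. Genes called higher in Spns1 KO than in FeO numbered 3 with library totals alone, without the filter and with the replicate block, 1 with only the groups compared and 1 to 5 without 1 library. Those called lower numbered 1 with only the groups compared and with the block and trend, and 1 to 3 without 1 library. The labels do not say that a number marks a shared animal or day, and the deviations of same-numbered libraries correlated between -0.296 and 0.256, so the block has no known pairing behind it. The cause of these losses was not tested.

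The sign turned in 14 values of members that were not called. With the length and GC trend removed, first without and then with the replicate block, the FeO values were -0.37 and -0.39 for Idh3b, -0.078 and -0.11 for Idh3g, -0.030 and -0.066 for Pdhb and -0.21 and -0.22 for Mpc1. The Spns1 KO values were -0.20 and -0.23 for Pdhb, 0.026 and 0.12 for Pdk1, 0.24 and 0.20 for Pdp2 and -0.047 and -0.049 for Mpc1, and Pdhx was at 0.0044 with both. With library totals alone, Spns1 KO values were -0.12 for Ogdh, -0.079 for Pdhb and -0.096 for Acly, and the FeO value of Pdp1 was -0.020. The replicate block put Ogdh in Spns1 KO at -0.00024. The FeO value of Dld was 0.013 with DESeq2, 0.0085 with DESeq2 size factors and 0.067 without the filter, which put Pdhx in Spns1 KO at 0.025. Without 1 library, Spns1 KO values ran from -0.11 to 0.16 for Acly, -0.077 to 0.14 for Ogdh, -0.028 to 0.13 for Pdhb, -0.14 to 0.099 for Pdhx and -0.12 to 0.0050 for Pdp2, and FeO values from -0.056 to 0.18 for Dld, -0.081 to 0.16 for Idh3b, -0.22 to 0.024 for Pcx and -0.038 to 0.082 for Pdp1. The lowest count of any of the 31 genes in any library was 229, and the effect of unequal depth was not tested.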
